A study of Mus musculus with 6 samples.

Results

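The 10 genes described here mark the sinusoidal endothelium of the liver: Stab1, Stab2, Lyve1, Clec4g, Oit3, Fcgr2b, Kdr, Pecam1, Dnase1l3 and Ehd3. They were taken by symbol from the deposited table, in which all 10 were found among 56534 genes or loci. Liver RNA was sequenced in 3 libraries labelled LKO (genotype CD36-/-, in a series whose title gives the knockout as hepatocyte-specific) and 3 labelled CON (genotype wild type). All animals were C57BL/6 mice that had a diet with 60% of its energy from fat for 16 weeks. The labels used here do not give age, sex, the promoter that drove the deletion, or whether CON animals carried a floxed allele. Whether each library of a group is another animal is also not stated, and p-values therefore reflect only the spread between these libraries, which may in part be technical.

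The sinusoids are the capillaries of the liver. Their endothelium is fenestrated, lacks a continuous basement membrane and clears soluble waste from the blood through scavenger receptors and lectins. CD36, a scavenger receptor that takes up long-chain fatty acids, is made by endothelial cells and macrophages as well as by hepatocytes. A deletion limited to hepatocytes leaves the gene intact in the endothelium. In RNA of whole liver, fewer cells of a type and less RNA per cell cannot be told apart.

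The values are FPKM, fragments relative to the length of the gene and to the mapped fragments of the library, which the authors rounded to 2 decimals. The depth in reads is unknown, since the file gives no counts and its values did not fall on whole multiples of a read. An FPKM of 1 or more was reached by 10614 to 10768 genes per LKO library and 10870 to 11311 per CON library. Major urinary proteins took 23.9% to 29.4% of the summed FPKM in LKO and 6.22% to 22.1% in CON. A library's deviations from the gene means followed gene length with a Spearman rho across genes of -0.33 and -0.30 in LKO 1 and LKO 2, and of 0.10 to 0.29 in LKO 3 and the CON libraries. Over the 11104 genes whose mean FPKM was 1 or more, the median log2 fold change, LKO over CON, was -0.23. It was -0.01 after median-ratio scaling of the libraries. Hepatocyte genes were abundant in every library, and the albumin gene Alb was at 16410 to 26682 FPKM in LKO and 24911 to 45751 FPKM in CON. Of 9 hepatocyte markers, 8 had a negative log2 fold change, beside 71.6% of all genes. After that scaling 6 were negative, beside 51.1% of all genes. The exception among the deposited values was Apoa1, at 16035.8 to 20480.5 FPKM in LKO and 9739.5 to 12585.8 FPKM in CON.

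All 10 markers passed the filter of a mean FPKM of at least 1. No marker differed between LKO and CON livers beyond the spread between libraries (limma, adjusted p of 0.402 to 0.969). The markers instead varied together from library to library, most within CON. CON 1 was the highest of the 6 libraries for 9 of the 10 genes, as for 40% of all genes tested. CON 2 was the lowest for 7 of the 10, as for 8.83% of all genes. The 10 genes summed to 75.1, 112.89 and 95.49 FPKM in LKO 1, 2 and 3, against 157.21, 59.32 and 129.98 FPKM in CON 1, 2 and 3. The LKO sums all lay inside the range of the CON sums.

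Clec4g, which encodes the lectin LSECtin, was the most abundant of the markers. It averaged 31.9 ± 10.7 FPKM over the 6 libraries (SD, n = 6). Next came the inhibitory Fc receptor gene Fcgr2b at 16.5 ± 6.80 FPKM and Ehd3, which encodes an ATPase of endocytic recycling, at 12.6 ± 3.38 FPKM. The stabilin genes Stab1 and Stab2 followed at 11.7 ± 3.39 and 9.70 ± 3.65 FPKM. Dnase1l3 and Oit3 stood at 6.83 ± 3.12 and 5.54 ± 2.72 FPKM. Pecam1 and Kdr were at 4.67 ± 1.60 and 3.42 ± 2.22 FPKM, and the hyaluronan receptor gene Lyve1 was lowest at 2.13 ± 1.33 FPKM. The order held in 6 of 6 libraries from Clec4g to Fcgr2b, Fcgr2b to Ehd3, Stab2 to Dnase1l3, Dnase1l3 to Oit3, and Kdr to Lyve1. It held in 4 of 6 from Ehd3 to Stab1, 3 of 6 from Stab1 to Stab2, 4 of 6 from Oit3 to Pecam1 and 5 of 6 from Pecam1 to Kdr, so the order of these neighbours was not the same in every library. Differences between neighbours were not tested. In mouse the extracellular coding sequence of Fcgr2b is very like that of its neighbour Fcgr3, and reads of the shared stretches could be split between them.

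Promoter windows from RefSeq (build GRCm38.p6, 300 bases, from 250 before to 50 after the transcript start) were matched by symbol for 6 of the 10 genes: Fcgr2b, Kdr, Clec4g, Stab2, Stab1 and Ehd3. Shown are the windows of Clec4g, the most abundant marker, and of Stab2 and Stab1, the related pair whose values part below. All lie on the minus strand and read 5′ to 3′ along the gene. Capitals mark AGGAAG on either strand, 1 of several sequences that ETS factors, a family with endothelial members, bind.
Clec4g, chr8:3720602-3720901: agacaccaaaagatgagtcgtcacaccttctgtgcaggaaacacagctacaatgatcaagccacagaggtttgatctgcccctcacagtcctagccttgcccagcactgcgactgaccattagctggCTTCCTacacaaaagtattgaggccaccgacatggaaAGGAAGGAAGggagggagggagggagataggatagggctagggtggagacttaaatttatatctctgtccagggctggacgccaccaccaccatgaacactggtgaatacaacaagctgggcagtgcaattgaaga
Stab2, chr10:87007893-87008192: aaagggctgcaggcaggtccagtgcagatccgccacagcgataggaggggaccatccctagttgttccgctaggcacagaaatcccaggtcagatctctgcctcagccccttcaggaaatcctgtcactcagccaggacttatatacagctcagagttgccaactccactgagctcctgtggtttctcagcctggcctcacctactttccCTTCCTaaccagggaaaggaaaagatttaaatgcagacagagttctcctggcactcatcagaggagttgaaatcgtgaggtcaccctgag
Stab1, chr14:31168592-31168891: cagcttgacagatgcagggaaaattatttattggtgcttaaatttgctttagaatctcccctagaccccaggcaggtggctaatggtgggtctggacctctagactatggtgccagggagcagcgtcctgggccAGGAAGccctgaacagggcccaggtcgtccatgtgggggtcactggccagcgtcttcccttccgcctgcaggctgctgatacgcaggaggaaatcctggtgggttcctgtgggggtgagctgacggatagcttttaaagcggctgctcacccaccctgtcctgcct
AGGAAG was found in 4 of the 6 windows, with 3 matches in Clec4g, the last pair overlapping, 1 each in Stab2, Stab1 and Ehd3, and 0 in Fcgr2b and Kdr. AGGAAG is also in 35.4% of the 32851 promoter windows of the same length. A window without it may hold other sequences that ETS factors bind, which were not searched. The GATA motif AGATAA, in 11.2% of all windows, and the forkhead motif GTAAACA, in 3.65%, were in 0 of the 6. Other sequences that GATA and forkhead factors bind were not searched either. The windows may therefore hold sites of these families, and AGATAG, for instance, is in the Clec4g window shown. Such matches describe letters in a window and do not show binding.

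Stab2, a scavenger receptor for hyaluronan and other glycosaminoglycans, was at 7.38, 8.89 and 8.85 FPKM in LKO 1, 2 and 3. It was at 15.77, 5.44 and 11.89 FPKM in CON 1, 2 and 3. The LKO values lay close together inside a CON range that was 2.90-fold wide. The log2 fold change on the log2(FPKM + 1) scale was -0.26 (SE 0.34, limma, adjusted p = 0.640), with a 95% interval of -1.04 to 0.53.

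Stab1, the other stabilin, takes up modified low-density lipoprotein and other ligands and is also made by some macrophages. It was at 9.19, 17.59 and 8.22 FPKM in LKO 1, 2 and 3, and at 13.19, 10.2 and 11.7 FPKM in CON 1, 2 and 3. LKO 2 was the highest of all libraries and LKO 3 the lowest, so Stab1 was the 1 member for which CON 1 was not on top. Its log2 fold change was -0.07 (SE 0.28, limma, adjusted p = 0.890), and its 95% interval was -0.72 to 0.58. The ratio of Stab1 to Stab2 FPKM was 1.25, 1.98 and 0.929 in LKO 1, 2 and 3, and 0.836, 1.88 and 0.984 in CON 1, 2 and 3. It was highest in LKO 2 and CON 2, the libraries in which 12 Kupffer cell markers also had their highest sums, 396.9 and 350.1 FPKM. The sums of that list were 213.7 and 331.7 FPKM in LKO 1 and LKO 3 and 333.7 and 258.7 FPKM in CON 1 and CON 3. LKO 3 and CON 1 had the lowest ratios of their groups. In CON 2, Stab1 itself was at its lowest CON value, 10.2 FPKM, and Stab2 was at 5.44 FPKM, its lowest of all libraries. The part of macrophage RNA in Stab1 was not tested.

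Lyve1, a hyaluronan receptor of sinusoidal and lymphatic endothelium, was at 0.76, 1.90 and 2.38 FPKM in LKO 1, 2 and 3. The CON libraries gave 4.49, 0.98 and 2.27 FPKM in CON 1, 2 and 3. LKO 1 was lowest and CON 1 highest, and the groups overlapped. The log2 fold change was -0.35 (SE 0.40, limma, adjusted p = 0.592). The lymphatic genes Mmrn1 and Pdpn were at no more than 0.25 FPKM in any library. The lymphatic list as a whole summed to 8.60 to 13.94 FPKM in LKO and 10.09 to 18.18 FPKM in CON, most of it from Prox1, which hepatocytes also express, and Ccl21a. These genes went opposite ways. Prox1 was at 3.92 to 7.86 FPKM in LKO and 9.54 to 14.93 FPKM in CON (log2 fold change -0.89, limma, adjusted p = 0.182). Its groups did not overlap, as for 24.3% of all genes in the lower direction. Ccl21a had a log2 fold change of 0.74 (limma, adjusted p = 0.415).

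Clec4g was at 23.24, 32.26 and 29.95 FPKM in LKO 1, 2 and 3, against 44.41, 17.76 and 43.58 FPKM in CON 1, 2 and 3. All LKO values lay between CON 2 and the other CON libraries. Its log2 fold change was -0.20 (SE 0.35, limma, adjusted p = 0.728).

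Fcgr2b, which clears small immune complexes in the sinusoids and is also expressed by B cells and macrophages, was at 11.82, 19.62 and 13.51 FPKM in LKO 1, 2 and 3. It was at 26.43, 7.59 and 20.06 FPKM in CON 1, 2 and 3. CON 1 and CON 2 were again the extremes, and the log2 fold change was -0.12 (SE 0.42, limma, adjusted p = 0.867). Of the B cell markers, Ms4a1, Cd79a, Cd79b and Cd22 were at 0.02 to 0.66 FPKM.

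Oit3, a secreted zona pellucida domain protein, and Dnase1l3, a secreted nuclease that degrades DNA in chromatin and microparticles, are both made by the sinusoidal endothelium. Oit3 was at 2.57, 6.21 and 5.10 FPKM in LKO 1, 2 and 3, and at 9.85, 2.80 and 6.72 FPKM in CON 1, 2 and 3. Dnase1l3 was at 3.87, 6.73 and 6.81 FPKM in LKO 1, 2 and 3, and at 11.81, 3.31 and 8.43 FPKM in CON 1, 2 and 3. Both genes had their lowest LKO value in LKO 1 and their lowest CON value in CON 2, and were highest in CON 1, with log2 fold changes of -0.34 (SE 0.42) and -0.27 (SE 0.40). Neither passed (limma, adjusted p = 0.617 and 0.679).

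Kdr, the main signalling receptor for VEGF-A, had the largest log2 fold change of the 10 genes on the deposited FPKM. It was at 1.87, 2.39 and 2.58 FPKM in LKO 1, 2 and 3, and at 6.78, 1.33 and 5.59 FPKM in CON 1, 2 and 3. CON 1 and CON 3 lay above every LKO library and CON 2 below every one. The means were 2.28 ± 0.37 FPKM in LKO and 4.57 ± 2.87 FPKM in CON (SD, n = 3 each). Its log2 fold change was -0.59 (SE 0.43, limma, adjusted p = 0.402), with a 95% interval of -1.58 to 0.40. Its ligand gene Vegfa was at 29.48 to 37.43 FPKM in LKO and 34.55 to 46.34 FPKM in CON (log2 fold change -0.27, limma, adjusted p = 0.383).

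Pecam1, an adhesion molecule of all endothelia that platelets and leukocytes also carry, was at 3.67, 4.28 and 5.49 FPKM in LKO 1, 2 and 3. It was at 6.99, 2.38 and 5.22 FPKM in CON 1, 2 and 3. Ehd3 was at 10.73, 13.02 and 12.60 FPKM in LKO 1, 2 and 3, and at 17.49, 7.53 and 14.52 FPKM in CON 1, 2 and 3. These genes had log2 fold changes nearest to 0, -0.02 (SE 0.32) for Pecam1 and -0.04 (SE 0.29) for Ehd3 (limma, adjusted p = 0.969 and 0.938).

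**Figure D1:**
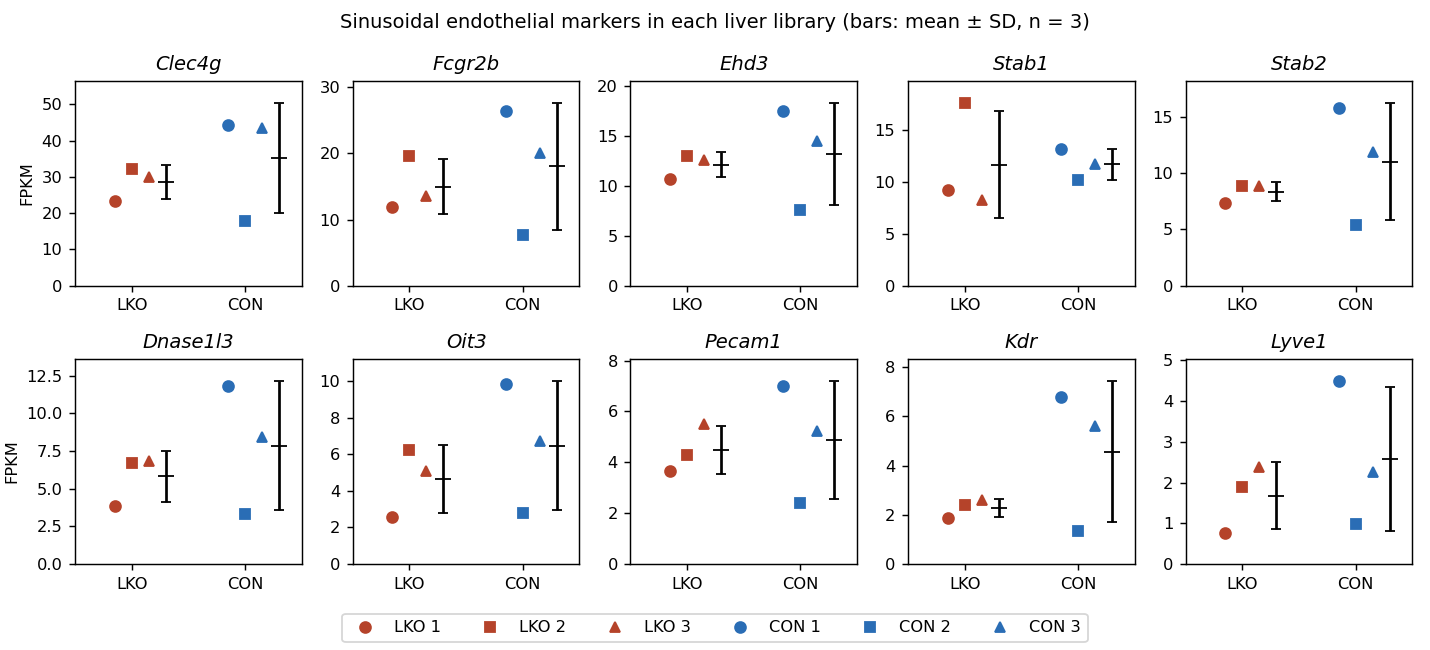
FPKM of the 10 markers in each library, LKO left and CON right of each panel, ordered by mean level; black bars give the mean and SD of 3 libraries. CON 1 is on top in 9 panels, CON 2 is at the bottom in 7, and Stab1 is highest in LKO 2.

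Of the 10 markers, 0 passed at an adjusted p under 0.05 in either direction (limma; background 0.00901% of genes lower and 0% higher), 0 passed without the mean-variance trend, and 0 had an unadjusted p under 0.05. At that unadjusted p, 18.9% of all genes were lower and 3.25% higher. In 0 of the 10 did the groups not overlap, against 24.3% of all genes in the lower and 3.92% in the higher direction. All 10 had a negative log2 fold change, against 71.6% of all genes, but 5 of the 10 turned positive after median-ratio scaling (Stab1, Clec4g, Fcgr2b, Pecam1 and Ehd3), where 51.1% of all genes were negative. The median of the 10 was -0.23, beside -0.23 for all genes, and 0.03 beside -0.01 after that scaling.

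These counts moved when single libraries were left out. Without CON 2, the groups did not overlap for 7 of the 10 markers, all lower in LKO, where 36.4% of all genes were in that position. A total of 4 then had an unadjusted p under 0.05, against 14.4% of genes that were lower at that p, and the median of the 10 was -0.64 against -0.27 for all genes. None passed over all genes even then (limma, lowest adjusted p = 0.302). CON 2 was the lowest CON library for 10 of the 10 markers and for 50% of all genes. Leaving it out therefore raises the lowest CON value of every marker, and the excess over all genes gives no separate evidence on the groups. Without LKO 3, 18.9% of all genes passed lower and 4.67% higher at an adjusted p under 0.05, but 0 of the 10 markers (limma, lowest adjusted p = 0.344). In that fit the group coincided with the length trend of the libraries. Without CON 1, 2 of the 10 were negative and their median was 0.03, against 69% negative and a median of -0.19 for all genes. CON 1 was the highest CON library for 10 of the 10 markers, so this move was fixed in direction too.

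**Figure D2:**
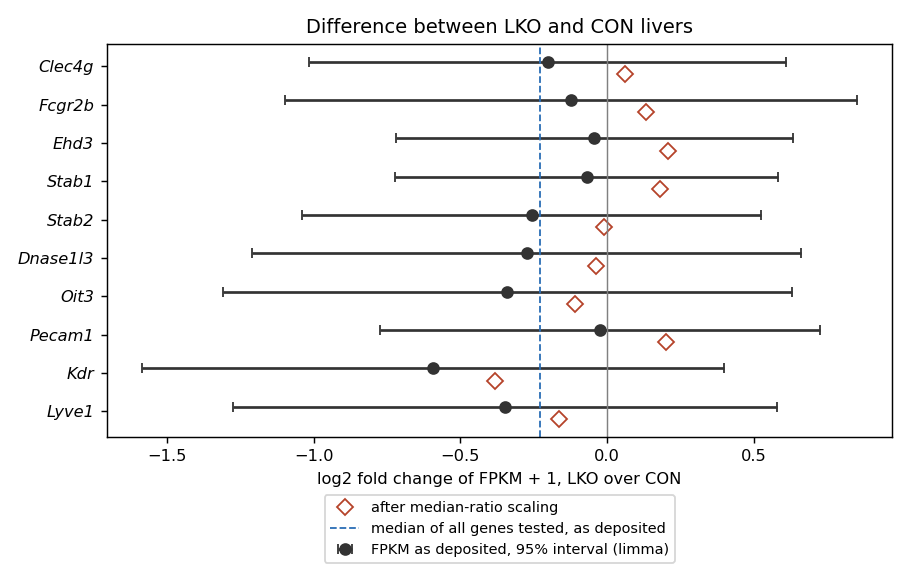
Log2 fold change of FPKM + 1, LKO over CON, for each marker. Filled points with bars give the deposited FPKM and their 95% interval (limma), open diamonds the values after median-ratio scaling, and the dashed line the median of all genes, -0.23. Every bar crosses 0, and 5 of the diamonds lie above 0.

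The variation within CON was of several fold. CON 1 exceeded CON 2 by 5.10-fold for Kdr, 4.58-fold for Lyve1, 3.57-fold for Dnase1l3, 3.52-fold for Oit3 and 3.48-fold for Fcgr2b. The ratio was 2.32-fold to 2.94-fold for Pecam1, Stab2, Clec4g and Ehd3, and 1.29-fold for Stab1. Within CON the order was CON 1, then CON 3, then CON 2 for 10 of 10 markers, an order that 32.4% of all genes had. In 7 of the 10 markers CON 1 was the highest and CON 2 the lowest of the 6 libraries at once, against 1.92% of all genes. On the log2(FPKM + 1) scale, the difference of CON 1 minus CON 2 had a median of 1.43 over the markers and 0.17 over all genes. After median-ratio scaling these medians were 1.23 and -0.02, CON 2 was lowest for 8 of the 10 (8.04% of all genes) and CON 1 highest for 6 (21.2%). Within LKO, LKO 1 was the lowest for 9 of the 10 markers, against 15.5% of all genes, and the exception was Stab1.

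The share of each marker in the sum of the 10 removes what all of them have in common in a library. Clec4g made up 28.6% to 31.4% of the sum in LKO and 28.2% to 33.5% in CON, and Stab2 7.87% to 9.83% in LKO and 9.15% to 10.03% in CON. Stab1 made up 8.61% to 15.6% in LKO and 8.39% to 17.2% in CON. Lyve1 made up 1.01% to 2.49% in LKO and 1.65% to 2.86% in CON, and Oit3 3.42% to 5.50% in LKO and 4.72% to 6.27% in CON. Kdr made up 2.12% to 2.70% in LKO, against 4.31%, 2.24% and 4.30% in CON 1, 2 and 3.

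Genes of the same vessels that are no members were also low in CON 2 within CON, but fewer of them had the full order of the markers. Of 12 other genes of sinusoidal endothelium, 10 had a mean FPKM of at least 1, and CON 2 was the lowest CON library for 10 of the 10, against 50% of all genes. It was the lowest of all 6 libraries for 6 of these 10 genes and for 7 of the 10 markers, against 8.83% of all genes. The order CON 1, CON 3, CON 2 was found for 6 of these 10 and for 10 of 10 markers. CON 1 was the highest of the 6 libraries for 5, and CON 1 highest and CON 2 lowest at once for 3, against 7 of the 10 markers. None passed (limma, lowest adjusted p = 0.295), 0 had an unadjusted p under 0.05, and their median log2 fold change was -0.12, or 0.09 after median-ratio scaling. Maf, a transcription factor of sinusoidal identity, was at 2.79, 3.86 and 3.63 FPKM in LKO 1, 2 and 3, and at 7.24, 3.47 and 5.07 FPKM in CON 1, 2 and 3. Gata4, another such factor, was at 3.43 to 4.85 FPKM in LKO and 3.49 to 6.93 FPKM in CON. The lymphangiogenic receptor gene Flt4 was at 1.11 to 1.88 FPKM in LKO and 0.88 to 3.51 FPKM in CON. Clec1b, a lectin receptor gene, was at 4.33, 8.98 and 6.38 FPKM in LKO 1, 2 and 3. Its CON values lay close together, at 7.42, 6.64 and 7.45 FPKM in CON 1, 2 and 3. CON 2 was thus its lowest CON library by a small margin only. The part of other cell types, Kupffer cells among them, in the Clec1b values was not tested.

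Of 24 genes shared by most endothelia, 21 were tested, and CON 2 was the lowest CON library for 18 and the lowest of all 6 libraries for 13. Their median log2 fold change was -0.00015, and 0.20 after median-ratio scaling. None passed over all genes, and 1, S1pr1, had an unadjusted p under 0.05. At that p 18.9% of all genes were lower, and the groups did not overlap in that direction for 24.3%. S1pr1, the receptor for sphingosine 1-phosphate that stabilises endothelial junctions, was at 4.77, 3.41 and 5.02 FPKM in LKO 1, 2 and 3, against 21.52, 12.56 and 10.94 FPKM in CON 1, 2 and 3. Its groups did not overlap, and its log2 fold change of -1.52 (SE 0.27) had an adjusted p of 0.163 (limma), in a range of 0.0208 to 0.473 over the alternatives. It passed in the fit without LKO 3 (log2 fold change -1.61, adjusted p = 0.0208), and so did Mmrn2 (0.72, adjusted p = 0.0499). S1pr1 did not share the low value of the markers in CON 2, where it lay above CON 3. The adrenomedullin receptor partner gene Ramp2 was at 9.06 to 11.94 FPKM in LKO and 4.44 to 9.52 FPKM in CON. The matrix protein gene Mmrn2 was at 7.04 to 13.69 FPKM in LKO and 5.76 to 9.11 FPKM in CON, and the adhesion receptor gene Adgrl4 at 0.93 to 1.54 FPKM in LKO and 0.74 to 3.36 FPKM in CON.

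Of 9 genes of continuous or large-vessel endothelium, 4 were tested, and their log2 fold changes were all positive, 0.14 to 0.49, with a median of 0.46 (0.69 after median-ratio scaling). CON 2 was the lowest of all 6 libraries for 4 of these 4 genes, against 8.83% of all genes. Without CON 2, 6 genes of the list were tested, 2 of them negative, with a median of 0.11. Without LKO 3, 1 of 5 was negative, Thbd at -0.17, with a median of 0.27. None passed over all genes, and 1, Plvap, had an unadjusted p under 0.05. At that p 3.25% of all genes were higher, and the groups did not overlap in that direction for 3.92%. Plvap, which forms the diaphragms of endothelial fenestrae and vesicles, was at 35.29, 27.17 and 23.68 FPKM in LKO 1, 2 and 3, and at 20.22, 16.84 and 23.17 FPKM in CON 1, 2 and 3. The groups did not overlap, by a gap of 23.68 against 23.17 FPKM (log2 fold change 0.49, SE 0.21, limma, adjusted p = 0.224). The surface antigen gene Ly6a was at 12.49 to 18.66 FPKM in LKO and 6.33 to 16.27 FPKM in CON, Vwf, the von Willebrand factor gene, at 2.19 to 5.20 FPKM in LKO and 1.03 to 4.06 FPKM in CON, and the thrombomodulin gene Thbd at 1.34 to 3.51 FPKM in LKO and 0.98 to 2.70 FPKM in CON. Cd34, a marker of continuous capillaries, was at 0.32 to 0.66 FPKM in all libraries.

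Within CON, most Kupffer cell and hepatocyte markers did not share the low value of CON 2. CON 2 was the lowest CON library for 1 of 12 Kupffer cell markers, 1 of 9 hepatocyte markers and 7 of 11 stellate cell markers. The share over all genes was 50%, so the stellate count was near it. Within LKO, LKO 1 was the lowest library for 11 of the 12 Kupffer cell markers, as for 9 of the 10 endothelial markers. It was the lowest for 2 of the 11 stellate cell and 1 of the 9 hepatocyte markers, and for 15.5% of all genes. The Kupffer cell markers summed to 213.65 to 396.91 FPKM in LKO and 258.66 to 350.08 FPKM in CON, and the stellate cell markers to 192.32 to 332.95 FPKM in LKO and 192.64 to 209.36 FPKM in CON. The haemoglobin gene Hba-a1 was at 48.14 to 152.34 FPKM in LKO and at 320.13, 123.98 and 21.85 FPKM in CON 1, 2 and 3. The list of 8 blood cell and platelet markers summed to 82.69 to 246.35 FPKM in LKO and 47.49 to 516.98 FPKM in CON, with Ly6g at 0 in every library. None of the genes of these lists passed (limma). Without LKO 3, 11 genes of the 12 other lists passed (limma), where 18.9% of all genes passed lower and 4.67% higher. The lower genes were 1 of 21 pan-endothelial, 1 of 2 lymphatic, 1 of 12 Kupffer cell and 2 of 9 hepatocyte genes tested. Also lower was 1 of 6 blood cell and platelet genes. The higher genes were 1 of 21 pan-endothelial, 1 of 2 lymphatic, 2 of 11 stellate cell and 1 of 9 hepatocyte genes tested. No list was tested against the shares over all genes. Lower were Adgre1 (log2 fold change -1.39, adjusted p = 0.0238), Prox1 (-1.05, adjusted p = 0.0403), S1pr1, S100a9, Cps1 and Hnf4a. Higher were Ecm1 (0.89, adjusted p = 0.0223), Colec11, Mmrn2, Ccl21a and Apoa1. Adgre1 was the only 1 of 12 Kupffer cell markers to pass. In that fit 9 of the 12 were negative, beside 7809 of the 11150 genes tested. The part of cell composition and residual blood in the markers' values was not tested.

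**Figure D3:**
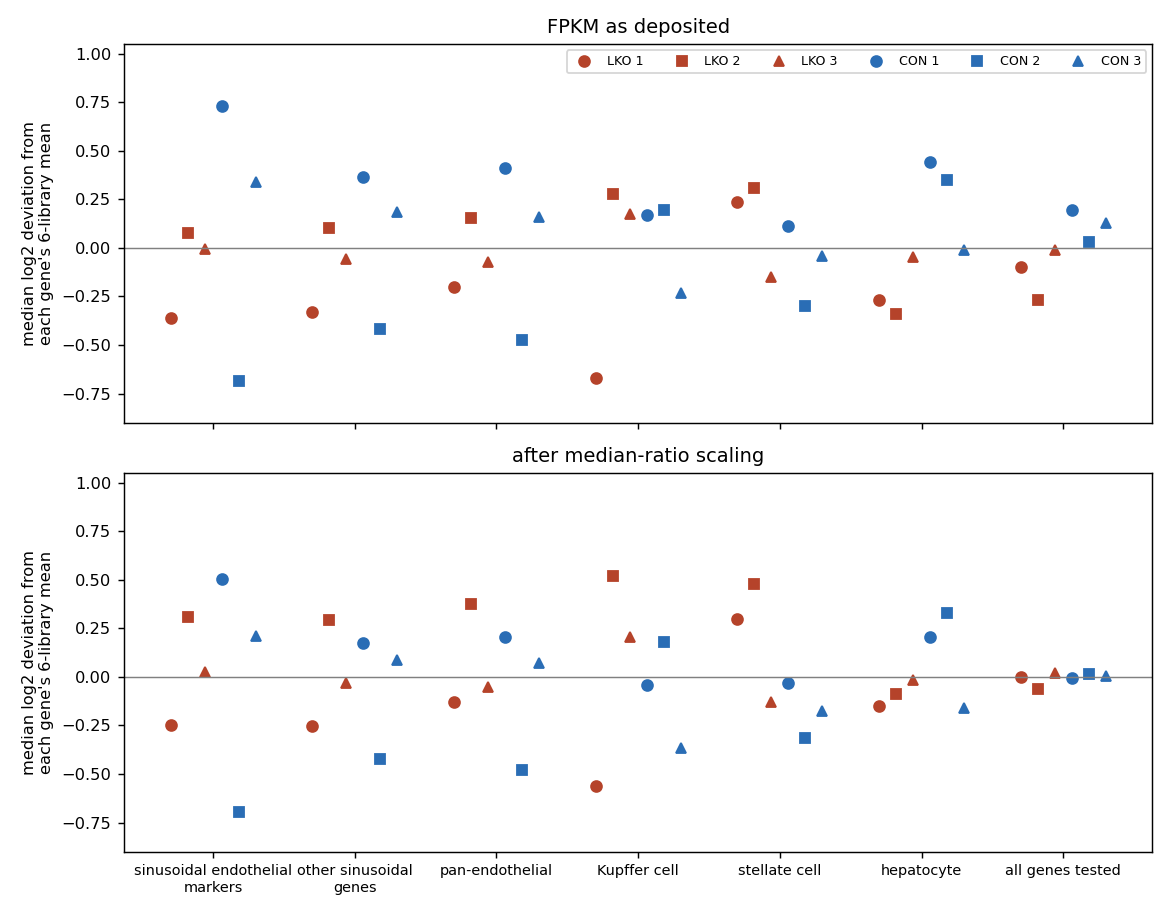
Median log2 deviation of each gene list from the 6-library mean of its genes, per library (LKO red, left; CON blue, right), from the deposited FPKM (top) and after median-ratio scaling (bottom). The 3 endothelial lists and the stellate list have CON 2 as their lowest CON library at both scales, the Kupffer and hepatocyte lists do not. All genes tested have CON 2 as the lowest CON library in the deposited FPKM, but not after scaling.

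The genes whose values followed the mean of the 10 markers most closely over the 6 libraries, by Pearson r of log2(FPKM + 1), were Slc43a3 (r = 0.998), a nucleobase transporter gene, and Pde2a (0.992), a cyclic nucleotide phosphodiesterase gene. Gmeb2 (0.988), Elk3 (0.987) and Tead3 (0.986), all genes of transcription factors, came next. These are the highest of 11104 genes and are given as a description, and 81 genes, 0.729%, had an r above 0.9. Slc43a3 was at 8.57, 11.08 and 10.14 FPKM in LKO 1, 2 and 3, and at 13.47, 7.77 and 11.87 FPKM in CON 1, 2 and 3.

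Cd36 itself (ENSMUSG00000002944) shared only part of the markers' order. It was at 2.73, 3.70 and 10.22 FPKM in LKO 1, 2 and 3, and at 61.95, 26.49 and 19.66 FPKM in CON 1, 2 and 3. Its log2 fold change was -2.50 (SE 0.51, limma, adjusted p = 0.163), with every LKO library below every CON library. Without LKO 3 it was -2.98 (adjusted p = 0.0164), in a range of adjusted p of 0.0164 to 0.486 over the alternatives. The mean of Cd36 in LKO was 15.4% of its CON mean, whereas that of the markers was between 49.9% (Kdr) and 99.7% (Stab1). Per FPKM of summed markers, Cd36 stood at 0.0364, 0.0328 and 0.107 in LKO 1, 2 and 3, and at 0.394, 0.447 and 0.151 in CON 1, 2 and 3. The groups remained apart on this ratio, with LKO 3 and CON 3 nearest to each other. Within LKO, Cd36 was highest in LKO 3, as were 4 of the 10 markers, while 6 markers and the sum were highest in LKO 2. Cd36 was lowest in LKO 1 within LKO, as were 9 of the 10 markers. It was highest in CON 1 within CON, as were 10 of the 10. Within CON, Cd36 was higher in CON 2 than in CON 3, the reverse of all 10 markers. The share of the Cd36 signal that came from endothelium was not tested.

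**Figure D4:**
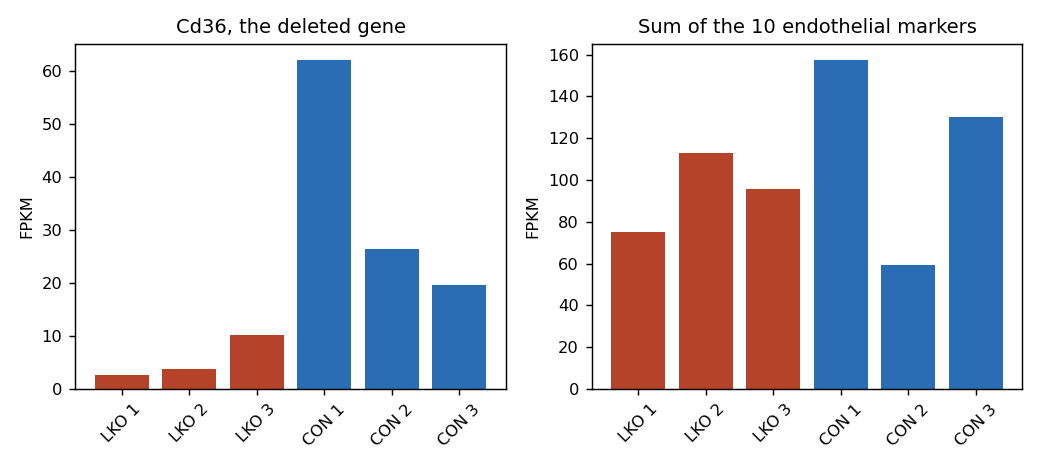
Cd36 (left) and the sum of the 10 markers (right) in FPKM per library, LKO red and CON blue. Cd36 is at 2.73 to 10.22 FPKM in LKO and 19.66 to 61.95 FPKM in CON, while the marker sums of LKO lie inside the CON range of 59.32 to 157.21 FPKM.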

How the data were processed

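RNA of mouse liver was measured by RNA-seq in 6 libraries (3 LKO, 3 CON). The authors deposited an FPKM for every gene in each library. HISAT2 and StringTie and the mouse build mm9 were used, per the submitters' processing notes. For versions, options, annotation and strandedness the source text is silent (not given in the sources used here), so overlapping antisense reads cannot be told apart. Of 56536 lines, 2 continued an annotation text and held no values. FPKM times length lay within 0.1 of a whole multiple of the best step for 21.8% to 23.1% of low values, where chance gives 20%, so reads could not be recovered. Without counts, no count model, counting interval or floor was computed. The authors' gene lengths were used for the length trend.

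The 11104 genes whose mean FPKM was 1 or more were taken to log2(FPKM + 1), which understates changes of low genes, and tested with limma 3.58.1 in R 4.3.3 (mean-variance trend, group as the only term, two-sided, Benjamini-Hochberg over all genes, threshold 0.05). Median-ratio scaling divides each library by its median ratio to the gene means, over genes above 0 in all 6 libraries. Same-numbered LKO and CON libraries are not paired by the labels.

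The members and the 12 other gene lists were chosen with earlier results of these data known. Named are every member, Cd36, up to 4 tested genes of a described list with the smallest unadjusted p, and the 5 genes most like the members' mean. The following were named after their values were seen or as markers at low levels: Vegfa, Alb, Cd34, Adgre1, Ecm1, Prox1, Ccl21a, Ly6g, Mmrn1, Pdpn, Hba-a1 and the B cell markers. Apoa1, Cps1, Hnf4a, Colec11 and S100a9 were also named after their values were seen. Of the lists, adhesion molecules, endothelial growth factor ligands, lymphatic, lymphocyte, platelet and cholangiocyte genes held 1 to 6 tested genes each, of which 0 passed. Coordinates of RefSeq promoters are of GRCm38.p6, not of mm9.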

Additional observations from a re-analysis of the deposited data

How the results depend on the processing

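Of 147 refitted log2 fold changes of the 10 markers, over 15 alternatives, 0 passed (limma, lowest adjusted p = 0.302) and 32 changed sign. Median-ratio scaling gave 0.18 for Stab1, 0.061 for Clec4g, 0.13 for Fcgr2b, 0.20 for Pecam1 and 0.21 for Ehd3. Quantile normalization gave 0.17, 0.089, 0.23 and 0.18 for Stab1, Fcgr2b, Pecam1 and Ehd3. Removal of the length trend, which also centres each library, gave 0.30, 0.12, 0.17, 0.26, 0.058 and 0.25 for Stab1, Stab2, Fcgr2b, Pecam1, Dnase1l3 and Ehd3. Leaving out single libraries moved Stab1 between -0.38 and 0.12, Stab2 between -0.65 and 0.037, Lyve1 between -0.71 and 0.022 and Clec4g between -0.62 and 0.015. It moved Fcgr2b between -0.62 and 0.22, Pecam1 between -0.38 and 0.24, Dnase1l3 between -0.73 and 0.061 and Ehd3 between -0.37 and 0.18. Kdr, at -1.13 to -0.26, and Oit3, at -0.76 to -0.0057 without single libraries, stayed negative in every alternative run, Lyve1, Kdr and Pecam1 not being tested with a filter at a mean FPKM of 5. The median of the members was 0.026 with median-ratio scaling, 0.088 with the length trend removed and -0.64 to 0.029 with single libraries left out. That median minus that of all genes, -0.0001 as fitted, was -0.20 with no filter on low values, 0.032 with the filter at 5, 0.086 with the length trend removed, 0.035 with median-ratio scaling, 0.044 with a pseudocount of 0.1, 0.0006 under quantile normalization and -0.37 to 0.22 with single libraries left out. The cause was not tested.

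Over all genes, 1 passed lower and 0 higher. The lower count was 0 with a pseudocount of 0.1, no filter, a filter at 5 or the length trend removed, and 0 to 2111 without single libraries. The higher count was 0 to 521 without single libraries, the large values without LKO 3. Genes of the other lists past the threshold numbered 0, and 0 to 11 without single libraries, again highest without LKO 3. With the replicate block, 0 genes and 0 members passed. Deviations of same-numbered libraries correlated at -0.05, 0.17 and 0.07 across genes for numbers 1, 2 and 3, and not every value was over 0.1. LKO 2 and LKO 3 correlated best with the CON library of their own number and LKO 1 did not, and the numbers were not treated as pairs. The depth is unknown, and 3 libraries a group limit the precision to the intervals given.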
